A study of Rattus norvegicus with 6 samples.

Results

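The bile acid synthesis enzymes are the liver enzymes that turn cholesterol into conjugated bile acids. They were taken as 10 rat genes, found on the arrays by matching the accession of each non-control probe to a RefSeq symbol. All 10 genes had a probe, 16 probes in all, among 15284 genes with a matched probe. Liver RNA came from 6 male Sprague-Dawley (Crl:CD(SD)) rats, bought at 5 weeks of age, with 1 single-colour Agilent array per animal. Of these, 3 rats received the vehicle corn oil and 3 received o-anthranilic acid at 1000 mg/kg/day. Both groups ate the same basal diet. The length of dosing is given as 9 weeks in the treatment protocol and as 28 days in the series design, so the duration behind the values is not settled. Anthranilic acid, 2-aminobenzoic acid, is an aromatic amino acid derivative formed in the breakdown of tryptophan.

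The classic route of bile acid synthesis starts in the endoplasmic reticulum with 7-alpha-hydroxylation of cholesterol by Cyp7a1, the rate-limiting step. The alternative route starts in mitochondria with Cyp27a1, whose products are 7-alpha-hydroxylated by Cyp7b1. Both routes share the ring enzymes Hsd3b7, Akr1d1 and Akr1c14. The side chain is then shortened in peroxisomes. Slc27a5 is a bile acid coenzyme A ligase, and Baat joins the activated acid to taurine or glycine. In liver, bile acids repress their own synthesis through the receptor FXR (Nr1h4), which induces the repressor SHP (Nr0b2). The nuclear receptor LRH-1 (Nr5a2) supports transcription of Cyp7a1 and Cyp8b1.

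The upstream sequences of 3 enzymes, Cyp8b1, Slc27a5 and Baat, are shown. Their relation to the signals below was not tested. RefSeq sequences upstream of the gene start were matched for 7 of the 10 genes, and not for Cyp7a1, Cyp7b1 and Akr1d1. The 250 bases before the start are given 5′ to 3′ on the gene's strand, in the GRCr8 build, with matches to the LRH-1 core CAAGGNC in capitals.
Cyp8b1, chr8:130457593-130457842, strand -: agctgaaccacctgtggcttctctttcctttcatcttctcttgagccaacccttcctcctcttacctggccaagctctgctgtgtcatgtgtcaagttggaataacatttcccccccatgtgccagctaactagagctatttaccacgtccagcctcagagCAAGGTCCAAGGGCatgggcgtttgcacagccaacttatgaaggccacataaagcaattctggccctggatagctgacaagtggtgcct
Slc27a5, chr1:82699336-82699585, strand -: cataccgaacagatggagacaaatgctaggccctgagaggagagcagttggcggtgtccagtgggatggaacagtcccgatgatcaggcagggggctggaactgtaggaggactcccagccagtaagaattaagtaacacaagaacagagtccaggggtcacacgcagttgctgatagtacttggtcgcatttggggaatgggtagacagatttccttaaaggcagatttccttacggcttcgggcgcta
Baat, chr5:68656138-68656387, strand -: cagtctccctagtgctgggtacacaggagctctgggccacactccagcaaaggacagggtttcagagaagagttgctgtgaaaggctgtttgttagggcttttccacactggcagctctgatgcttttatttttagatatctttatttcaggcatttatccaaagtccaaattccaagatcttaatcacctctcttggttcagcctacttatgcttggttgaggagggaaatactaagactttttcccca
The search covered both strands of the 300 bases from 250 before to 50 after the start. The LRH-1 core was found at 2 adjacent places in Cyp8b1, on the gene's strand at -89 to -83 and -82 to -76 from the start, and in 18.6% of 33469 rat promoter windows. It was also present once each in Cyp27a1 and Amacr. The nuclear receptor core AGGTCA occurred 2 times in Cyp27a1 and once in Amacr, against 16.2% of windows. Neither the TATA box TATAAA (14.2% of windows) nor the HNF1 core GTTAAT (7.45%) was found in the 7 windows. The LRH-1 core and AGGTCA share letters, so their matches can overlap. These are matches of letters, not sites shown to be bound.

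Akr1d1, the steroid 5-beta-reductase, had the smallest p of the 10 enzymes, with all 3 treated livers above all controls at each of its 3 probes, though it did not pass the test over all probes. Cyp7a1 varied widely among rats of the same group. Cyp8b1 and Baat were level across the groups. Each value below is a relative signal, the processed spot signal divided by the array's 75th percentile over non-control probes, and each difference is a log2 value of treated over control, given with its standard error (SE) from limma over 3 arrays per group. A gene was called at an adjusted p (Benjamini-Hochberg over 33428 tested probes) under 0.05. All 16 probes were well above background on all 6 arrays, so all 10 genes passed the filter on dim probes. The limma test called 0 of the 16 probes and 0 of the 10 genes, against 0.0329% of all tested probes and 0% of 10257 genes. At adjusted p under 0.1 there were 2 probes, both of Akr1d1, against 0.15% of all probes, and 0 of the 10 genes, each read by its brightest probe, against 0.0487% of all genes.

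At an unadjusted limma p under 0.05 there was 1 of the 10 genes, Akr1d1, against 11.6% of all genes (5.47% higher and 6.15% lower). Treated and control signals were fully separate for 2 of the 10, Akr1d1 and Akr1c14, against 19.8% of all genes (10.7% higher and 9.13% lower), so the share of enzymes with separate groups was near the background. The median difference over the 10 enzymes was 0.12, against 0.01 over all genes, with 6 above 0 and 4 below.

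**Figure D1:**
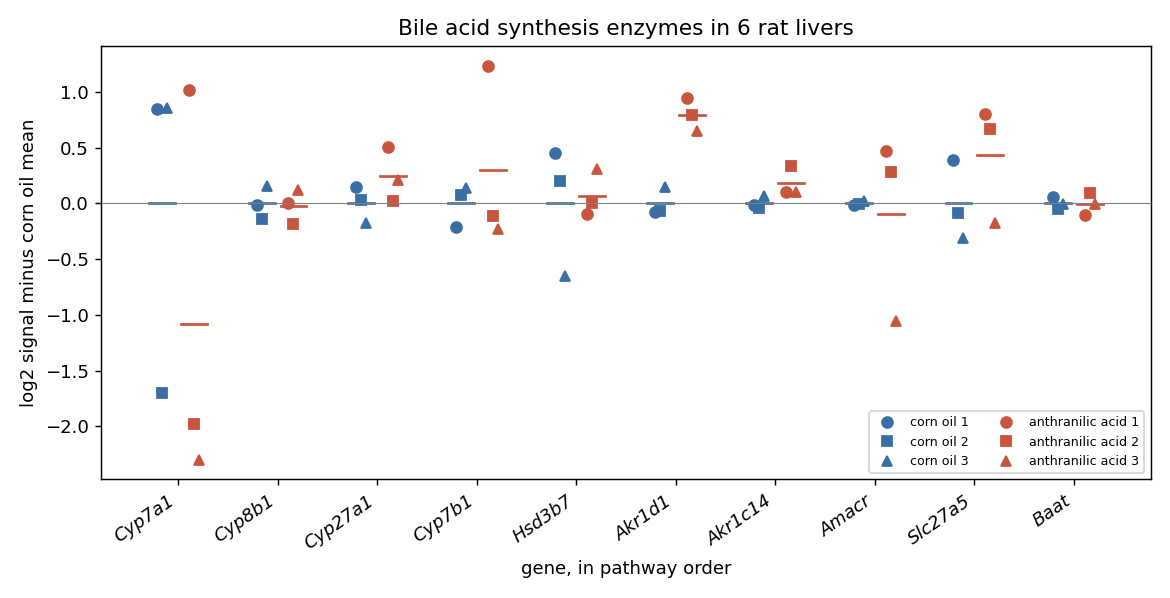
Relative signal of each enzyme in each rat, on the log2 scale and centred on the corn oil mean of that gene, in pathway order. Blue is corn oil, red is anthranilic acid, the marker shape is the replicate number and the short lines are group means. The groups separate at Akr1d1 and, by a narrow margin, at Akr1c14. Cyp7a1 splits widely inside both groups, and anthranilic acid replicate 3 lies far below the other treated rats at Amacr.

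Cyp7a1, the entry enzyme of the classic route, had relative signals of 1.00, 0.172 and 1.01 in corn oil replicates 1, 2 and 3. In anthranilic acid replicates 1, 2 and 3 they were 1.13, 0.142 and 0.113. Corn oil replicate 2 and anthranilic acid replicates 2 and 3 were low, the other 3 rats were close together at a high level, and the groups overlapped. The difference was -1.09 (SE 1.08, limma adjusted p = 0.700), with a 95% interval from -3.71 to 1.53. As a ratio of treated to control, that interval runs from 0.0766 to 2.90, so these arrays do not fix the direction. Leaving out single arrays moved the difference between -2.14 and -0.48, the latter without anthranilic acid replicate 3.

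Cyp8b1 adds the 12-alpha-hydroxyl group that sets the share of cholic acid. Its signals were 38.9, 35.6 and 43.7 in corn oil and 39.4, 34.6 and 42.6 in anthranilic acid. The groups overlapped almost completely, with a difference of -0.02 (SE 0.12, adjusted p = 0.959 by limma) and a 95% interval from -0.32 to 0.28. The ratio of Cyp8b1 to Cyp7a1 within an array differed by 1.07 between groups (exact two-sided permutation p = 0.5, where the smallest possible is 0.1, adjusted p = 0.5 over 4 pairs). It was 0.39 without anthranilic acid replicate 3 and 2.11 without anthranilic acid replicate 1.

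Cyp27a1, the mitochondrial sterol 27-hydroxylase that opens the alternative route, had signals of 23.2, 21.5 and 18.6 in corn oil. In anthranilic acid they were 29.7, 21.3 and 24.3, with replicate 2 inside the range of the controls. The difference was 0.25 (SE 0.15, limma adjusted p = 0.535), and 0.12 without anthranilic acid replicate 1. Cyp7b1, the oxysterol 7-alpha-hydroxylase, had signals of 0.899, 1.10 and 1.14 in corn oil and 2.45, 0.961 and 0.889 in anthranilic acid. Only anthranilic acid replicate 1 stood above the controls, and the other two treated rats lay within or just below their range. The difference was 0.30 (SE 0.39, limma adjusted p = 0.778), and it was -0.17 without anthranilic acid replicate 1. The dimmer Cyp7b1 probe also had its highest signal, 0.222, in that rat, against 0.0837 to 0.121 in the other 5, and gave 0.38 (SE 0.35, limma adjusted p = 0.671).

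The same treated rat, replicate 1, thus had the highest signal of both 7-alpha-hydroxylases. The ratio of Cyp7a1 to Cyp7b1 within an array differed by -1.38 between groups (exact two-sided permutation p = 0.2, adjusted p = 0.4 over 4 pairs). Its SD was 1.55 in corn oil and 1.02 in anthranilic acid on the log2 scale, 3 arrays each, against a difference whose size lay between these SDs. Leaving out single arrays gave -2.27 (without corn oil replicate 2) to -0.85 (without corn oil replicate 1).

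Hsd3b7, the dehydrogenase that converts the 7-alpha-hydroxylated sterols to 3-oxo products, had signals of 8.81, 7.41 and 4.09 in corn oil and 6.01, 6.44 and 7.96 in anthranilic acid. The treated rats lay inside the range of the controls, and the difference was 0.07 (SE 0.29, limma adjusted p = 0.940). It was -0.26 without corn oil replicate 3, the lowest rat, and -0.05 without anthranilic acid replicate 3, so its sign rests on single arrays.

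Akr1d1 reduces the double bond of those 3-oxo sterols and gives the bent ring shape of bile acids. At its brightest probe, A_44_P552817, signals were 23.7, 23.9 and 27.6 in corn oil and 48.0, 43.2 and 39.3 in anthranilic acid. All 3 treated livers lay above all 3 controls, and the lowest treated value was well above the highest control. The difference was 0.79 (SE 0.11), or 1.73-fold with a 95% interval of 1.43 to 2.10, at an unadjusted p of 0.000367 and a limma adjusted p of 0.125 that did not pass.

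The other two Akr1d1 probes match the same transcript and gave the same order of groups. Probe A_64_P354893 had signals of 14.8, 14.4 and 15.8 in corn oil and 29.4, 26.9 and 24.3 in anthranilic acid, a difference of 0.84 (SE 0.10, limma adjusted p = 0.0955). Probe A_44_P430706 had 12.8, 12.0 and 12.7 in corn oil and 24.4, 24.0 and 21.2 in anthranilic acid, a difference of 0.89 (SE 0.09, limma adjusted p = 0.0650). In each of the 3 probes anthranilic acid replicate 1 was the highest and replicate 3 the lowest of the treated rats. The probes measure 1 RNA in the same 6 rats and are not replicates of each other. The difference at the brightest probe stayed between 0.72 and 0.87 when single arrays were left out, and was 0.87 within the slide that held 5 of the 6 arrays.

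Akr1c14, the 3-alpha-hydroxysteroid dehydrogenase that acts on the product of Akr1d1, had signals of 21.98, 21.6 and 23.3 in corn oil and 23.9, 28.0 and 24.0 in anthranilic acid. The Akr1c family has similar copies, so the probe's assignment is uncertain. The treated rats lay above the controls by a narrow margin, with a difference of 0.18 (SE 0.10, limma adjusted p = 0.492), and 0.10 without anthranilic acid replicate 2. Quantile normalisation ended this separation, leaving Akr1d1 as the only enzyme of the 10 with groups apart. The ratio of Akr1d1 to Akr1c14 within an array was 1.53-fold higher in treated livers, with all 3 treated arrays above all 3 controls (exact two-sided permutation p = 0.1, the smallest this design allows, adjusted p = 0.4 over 4 pairs).

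**Figure D2:**
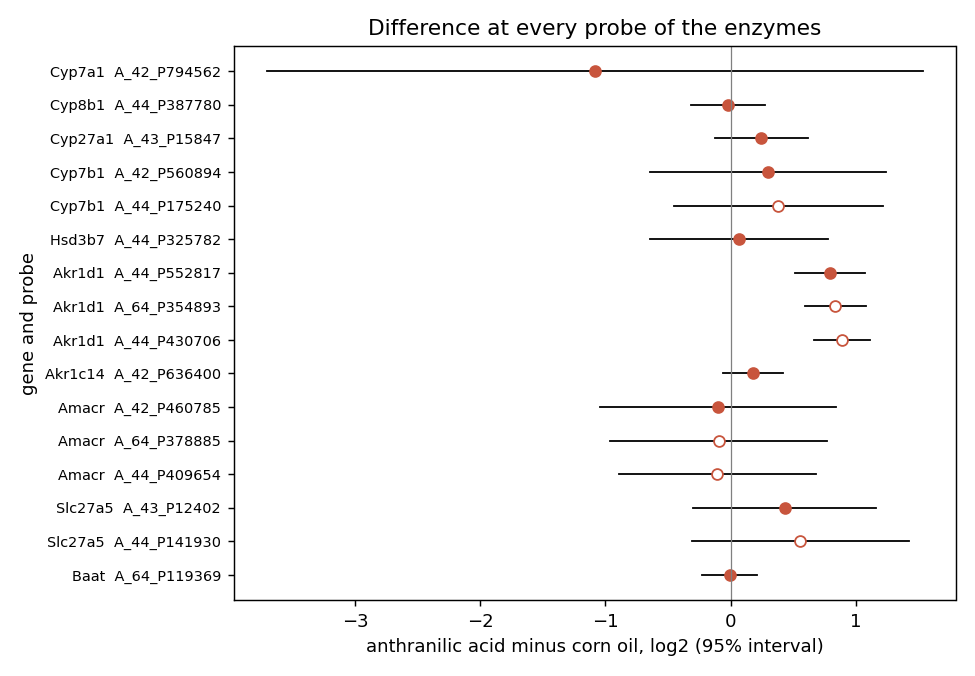
Difference between anthranilic acid and corn oil (log2) at each of the 16 probes, with 95% intervals from the limma fit over 3 arrays per group. Filled points are the brightest probe of a gene and open points its other probes. The intervals of all 3 Akr1d1 probes lie above 0 and all others include 0, before any adjustment for the number of probes.

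Amacr, the racemase that turns the side chain into the form peroxisomes can oxidise, had signals of 77.3, 77.8 and 79.6 in corn oil and 108, 95.2 and 37.7 in anthranilic acid. The controls were nearly equal, treated replicates 1 and 2 lay above them, and treated replicate 3 lay below them. The difference was -0.10 (SE 0.39, limma adjusted p = 0.934). Its other 2 probes gave -0.10 and -0.11, with the same low value in replicate 3, of 24.9 and 11.3 against 47.1 to 64.8 and 19.8 to 27.4 in the other 5 rats.

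Slc27a5, the bile acid coenzyme A ligase, had signals of 322, 232 and 199 in corn oil and 429, 390 and 217 in anthranilic acid. Treated replicates 1 and 2 lay above all controls and replicate 3 among them. The difference was 0.43 (SE 0.30, limma adjusted p = 0.581), or 1.35-fold with a 95% interval of 0.810 to 2.24, and it was 0.24 without anthranilic acid replicate 1. The dimmer probe gave 0.56 (SE 0.36, limma adjusted p = 0.547), with signals of 81.5, 51.7 and 40.5 in corn oil and 107.4, 97.01 and 52.1 in anthranilic acid.

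Baat, which joins the activated bile acid to an amino acid, had signals of 287, 266 and 276 in corn oil and 256, 294 and 275 in anthranilic acid. The difference was -0.01 (SE 0.09, limma adjusted p = 0.980), with a 95% interval from -0.23 to 0.21. The ratio of Slc27a5 to Baat within an array differed by 0.44 between groups (exact two-sided permutation p = 0.3, adjusted p = 0.4 over 4 pairs). It was 0.20 without anthranilic acid replicate 1 and 0.74 without anthranilic acid replicate 3.

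Anthranilic acid replicate 3 was the only array on slide 2 and was scanned apart from the other 5. Within slide 1, where 2 treated rats face 3 controls, 3 of the 10 enzymes had an unadjusted limma p under 0.05, against 10.4% of 10350 genes. They were Akr1d1 at 0.87 (SE 0.12), Slc27a5 at 0.73 (SE 0.22, 1.66-fold) and Amacr at 0.38 (SE 0.10, 1.30-fold), and with adjusted p of 0.153, 0.388 and 0.341 none passed. The groups did not overlap there for 4 of the 10 enzymes, these 3 and Akr1c14, against 30.9% of genes. Amacr thus turns from -0.10 with all 6 arrays to 0.38 on slide 1. Anthranilic acid replicate 3 had the lowest Cyp7a1, Cyp7b1 and Amacr signals of the 6 rats. Its Slc27a5 signal was the lowest of the treated rats but lay among the controls. Whether the slide or the rat carries these values cannot be told apart, since slide 2 holds 1 array. On slide 1 all controls lay in row 1 and both treated rats in row 2, so position on that slide and dosing cannot be told apart.

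The enzymes differed widely in how much rats of the same group differed. The pooled within-group SD of Cyp7a1 was 1.66 on the log2 scale, higher than that of 99.8% of genes. Cyp7b1 and Amacr had SDs of 0.59 each, at percentiles 96.0 and 95.9, and Slc27a5 and Hsd3b7 had 0.45 and 0.44, at percentiles 92.6 and 91.9. Cyp27a1 (0.21), Cyp8b1 (0.15) and Akr1d1 (0.14) were nearer the median gene (0.15). Akr1c14 (0.10) and Baat (0.08) varied less. Over all 10 enzymes 3 had an SD in the top 5% of genes, and the highest and lowest rats differed 9.97-fold for Cyp7a1 and 1.15-fold for Baat. Anthranilic acid replicate 1 had the highest signal of the 6 rats for 6 of the 10 enzymes, Cyp7a1, Cyp27a1, Cyp7b1, Akr1d1, Amacr and Slc27a5, against 13.9% of all genes.

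**Figure D3:**
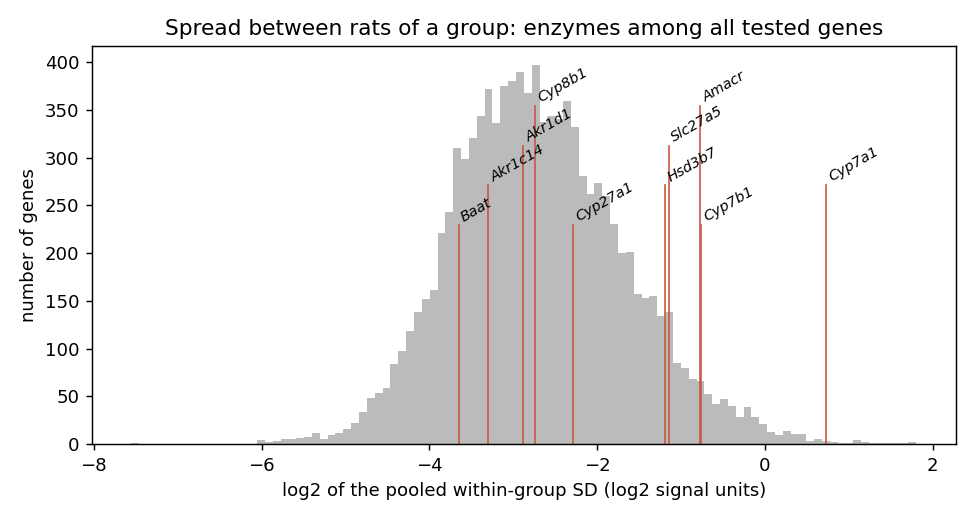
Pooled within-group SD of the log2 signal for 10257 genes (grey, number of genes on the y axis, log2 of the SD on the x axis), with the 10 enzymes marked in red. Cyp7a1 lies at the far right, at an SD of 1.66, and Baat at the left, at 0.08.

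Among 9 further genes of bile acid synthesis, 8 were measured and 0 passed the limma test, with a median of 0.01. At unadjusted limma p under 0.05, 2 were lower, against 6.15% of all genes. Ch25h, the cholesterol 25-hydroxylase, had signals of 0.119, 0.156 and 0.126 in corn oil and 0.0600, 0.0729 and 0.0498 in anthranilic acid. All treated values were below all control values, at -1.14 (SE 0.17, unadjusted p = 0.000506, limma adjusted p = 0.138), and its probe was well above background on all 3 control arrays but on 2 of the 3 treated ones. It entered the test through the controls, so the size of its difference is uncertain. Abcd3, a peroxisomal transporter of long-chain and bile acid precursors, stood at -0.30 (SE 0.10, limma adjusted p = 0.353). Acox2, the oxidase of the bile acid side chain, is singled out after its values were seen. It had a signal of 42.0 in anthranilic acid replicate 2 against 7.44 to 10.4 in the other 5 rats.

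Among regulators of bile acid synthesis, 11 of 13 listed genes were measured, 0 passed and none was under an unadjusted p of 0.05 by limma. The median was -0.12, or -0.04 without corn oil replicate 3. Of the 11 genes, 9 lay below 0 and 2, Nr1h4 and Nr0b2, lay above 0. Nr1h4 stood at 0.42 (SE 0.18, limma adjusted p = 0.420), with signals of 28.9, 26.8 and 42.5 in corn oil and 44.5, 43.8 and 40.3 in anthranilic acid. Nr0b2 had signals of 11.5, 47.8 and 37.6 in corn oil and 29.9, 72.9 and 70.0 in anthranilic acid, a difference of 0.96 (SE 0.61, limma adjusted p = 0.543). Set beside Cyp7a1 rat by rat, corn oil replicate 2 and anthranilic acid replicates 2 and 3, with the lowest Cyp7a1, had the highest Nr0b2. Corn oil replicates 1 and 3 and anthranilic acid replicate 1 had high Cyp7a1 and lower Nr0b2. The Cyp7a1 values fall into separate clusters, so no correlation is given and the relation was not tested. It was not among the 4 pairs tested and is singled out after the values were seen. How many other genes split the rats in this way was not counted.

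**Figure D4:**
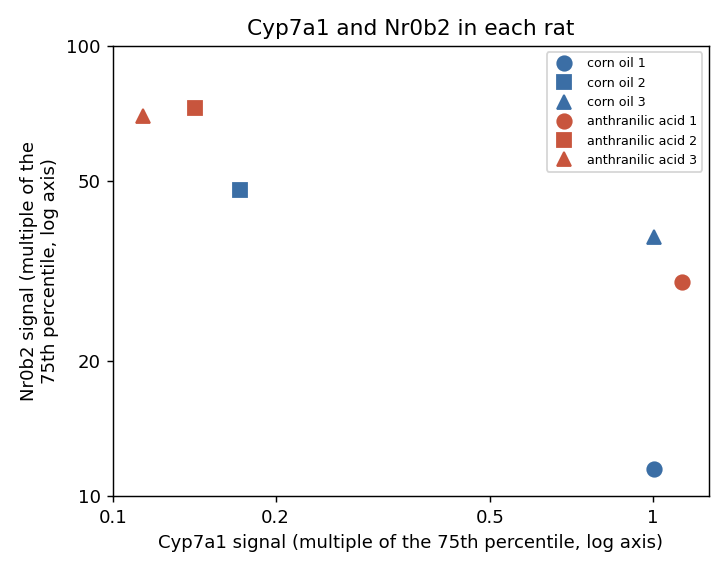
Relative signal of Cyp7a1 (x axis, log scale) and of Nr0b2 (y axis, log scale) in each of the 6 rats, blue for corn oil and red for anthranilic acid. The 3 rats with Cyp7a1 between 0.113 and 0.172 have Nr0b2 between 47.8 and 72.9, and the others have Nr0b2 between 11.5 and 37.6.

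Of transporters under FXR control, 3 of 6 were measured and 0 passed. The phospholipid pump Abcb4 stood at -0.54 (SE 0.15, limma adjusted p = 0.302), with signals of 4.69, 4.89 and 4.18 in corn oil and 2.60, 3.33 and 3.63 in anthranilic acid, whereas the sterol transporter subunit Abcg5 stood at 0.22 (SE 0.34). All 4 uptake transporters were measured and 0 passed, with the sodium-dependent Slc10a1 at 0.30 (SE 0.12, limma adjusted p = 0.395) and Slco1a1 at -0.09 (SE 0.12).

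Genes of cholesterol synthesis and uptake, which set the supply of substrate, had 0 of 20 passing. At unadjusted limma p under 0.05, 1 was lower, against 6.15% of all genes. Their median was 0.29, which was 0.06 without corn oil replicate 2 and 0.46 without anthranilic acid replicate 3. Insig1, which retains the sterol-sensing complex in the endoplasmic reticulum, stood at -0.72 (SE 0.27, limma adjusted p = 0.388). Clock genes are given because Cyp7a1 follows a daily rhythm in rat liver. Of these, 11 of 14 were measured and 0 passed, with 2 higher at unadjusted limma p under 0.05, against 5.47% of all genes. The clock repressor Nr1d1 was at 0.60 (SE 0.15, limma adjusted p = 0.280) and Tef at 0.37 (SE 0.11, limma adjusted p = 0.332). All treated values lay above all controls for both, as they did for 10.7% of all genes. The part of sampling time in the Cyp7a1 values was not tested.

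Genes of hepatocytes near the central vein had 7 of 8 measured members below 0, with 0 passing. Their median was -0.53 (-0.33 without corn oil replicate 1 and -0.35 without anthranilic acid replicate 2). At unadjusted limma p under 0.05, 2 were lower, against 6.15% of all genes. The ammonium transporter Rhbg stood at -0.995 (SE 0.34, limma adjusted p = 0.364) and glutamine synthetase Glul at -0.54 (SE 0.21, limma adjusted p = 0.397). Cyp2e1, the 1 gene above 0, is singled out after its values were seen and stood at 0.23 (SE 0.19, limma adjusted p = 0.643). The summed relative signal of the list overlapped between groups, at 391 to 570 in corn oil and 451 to 552 in anthranilic acid. Genes of hepatocytes near the portal vein had a median of 0.16 over 9 (0.08 without anthranilic acid replicate 2 and 0.33 without anthranilic acid replicate 1), with 0 passing. At unadjusted limma p under 0.05, 3 were higher and 1 lower, against 5.47% and 6.15% of all genes. Cdh1, a cell adhesion protein, stood at 0.71 (SE 0.10, limma adjusted p = 0.120) and the lipid droplet protein Hsd17b13 at 0.68 (SE 0.13, limma adjusted p = 0.207). Of the 9 periportal genes, 7 lay above 0 and 2 below. Pck1, the 1 lower gene, is singled out after its values were seen and stood at -0.64 (SE 0.16, limma adjusted p = 0.282). Genes that couple organic acids to amino acids, a route parallel to Slc27a5 and Baat, had 0 of 5 passing and a median of -0.35, which was -0.04 without anthranilic acid replicate 1, -0.06 without corn oil replicate 1, -0.08 without anthranilic acid replicate 2 and -0.05 without anthranilic acid replicate 3. Acsm1 stood at 0.12 (SE 0.08), and Acsm5 at -1.96 (SE 1.30), with 127 in treated replicate 3 against 3.70 and 5.85 in replicates 1 and 2. The other two Acsm5 probes gave -0.39 and 0.85, so its probes disagree.

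**Figure D5:**
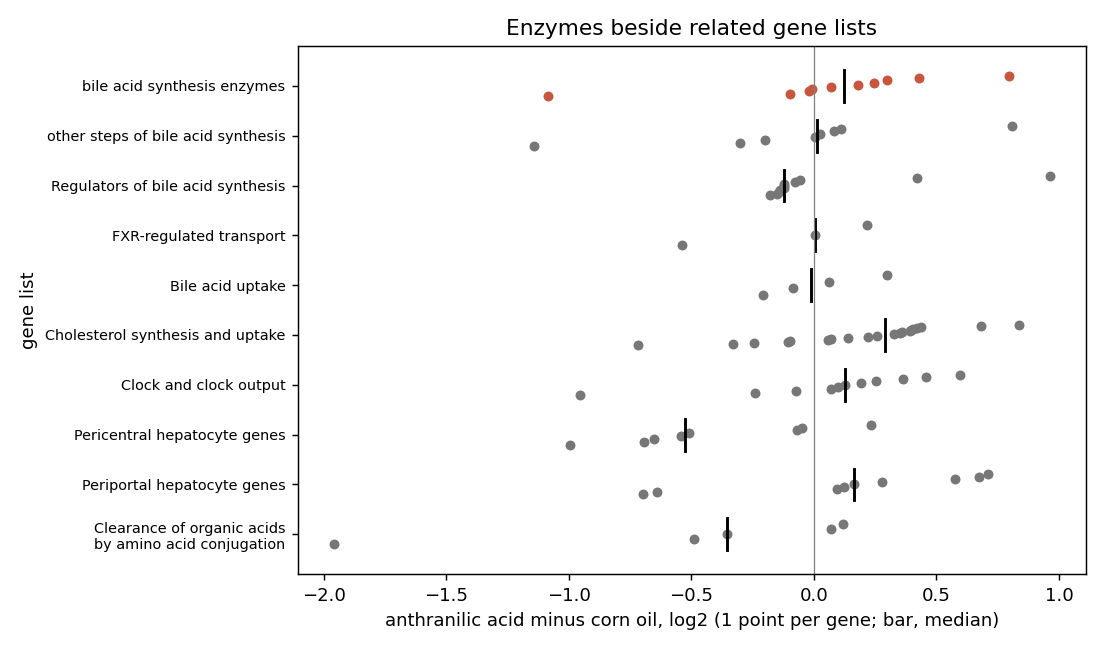
Difference between anthranilic acid and corn oil (log2) for each measured gene of the bile acid synthesis enzymes (red) and of 9 related lists (grey), with the median of each list as a bar. The enzymes have a median of 0.12, between the pericentral genes at -0.53 and cholesterol synthesis and uptake at 0.29.

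Hepatocyte markers, all 8 measured, had a median of -0.07, and their summed relative signal was 4617 to 4755 in corn oil and 4317 to 4424 in anthranilic acid. These sums did not overlap. For single genes, all treated values lay below all controls for 5 of the 8 markers, against 9.13% of all genes. Of the 8 markers, 7 lay below 0 and 1, Cps1 at 0.09 (SE 0.13), above 0. Only Apoa1 was under an unadjusted limma p of 0.05, at -0.57 (SE 0.15, limma adjusted p = 0.285). Lymphocyte markers, 4 measured of 7 listed, all had a difference above 0, none passing after adjustment. All 4 had an unadjusted limma p under 0.05, against 5.47% of all genes higher. Their groups were separate for 3 of the 4, against 10.7% of all genes separate and higher. Their sums were 0.910 to 1.10 in corn oil and 1.70 to 1.80 in anthranilic acid. Sums of the other marker lists (bile duct, macrophage, endothelial, stellate, neutrophil, erythroid, kidney or intestine) overlapped between groups, with all 7 macrophage markers below 0. Of the kidney or intestine list, Umod, Slc34a1 and Vil1 were too dim to be tested. The intestinal genes Fabp2 (1.63 to 2.93) and Lct (0.176 to 0.319 at its brightest probe) were well above background on all 6 arrays. The other Lct probes, A_44_P328028 and A_43_P15647, were well above background on 0 arrays, so its probes disagree. The part of cell composition in the enzyme values was not tested, and in whole tissue fewer cells of a type and less RNA per cell cannot be told apart. On each array 53.3% to 58.0% of probes were well above background, no spot was saturated, and arrays correlated at r = 0.987 to 0.992 within groups and 0.984 to 0.989 between groups across tested probes.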

How the data were processed

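The deposited intensity files hold 1 array each. Per the file headers, Agilent Feature Extraction 10.7.1.1 (10.7 in the submitters' processing notes) subtracted background and detrended each spot. Array flags for detection, saturation and outliers are a further (other) deposited measure, per the file headers. The authors' deposited value table holds a ratio of that signal to about its 75th percentile per array (column medians 0.0887 to 0.0976). No source used here says how it was made, and it served as an alternative.

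Signals were log2-transformed in R 4.3.3 and the 75th percentile of 61657 non-control probes was subtracted. Outlier spots (14) were dropped, none of them at the enzymes. Probes well above background on all 3 arrays of a group (33428) entered limma 3.58.1 (lmFit, eBayes). Through RefSeq accessions (GRCr8 table, whereas the headers name the rn4 build), 27460 probes have a symbol. The brightest tested probe stands for a gene. The enzymes, the lists and the naming rule (all enzymes, and the 2 smallest p of each list) were chosen with earlier results of these data known. For 1 list, 1 gene under this rule is not reported here. Replicates are separate animals, and their number limits precision. The procedure was tested on simulated data.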

Additional observations from a re-analysis of the deposited data

How the results depend on the processing

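No enzyme passed the limma threshold under any of 18 alternatives, and the median over the enzymes stayed between 0.08 and 0.24. The brightest Akr1d1 probe gave 0.72 to 0.87, and its adjusted p lay between 0.0566 and 0.361. Its probe A_44_P430706 passed with normexp background correction (0.95, adjusted p = 0.0152) and with a trended robust variance (0.89, adjusted p = 0.0163), and A_64_P354893 with the latter (0.84, adjusted p = 0.0297). The cause of each change below was not tested.

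Of all tested probes, 11 passed, against 50 with normexp, 2 without the filter on dim probes, 2 with detection on all 6 arrays, 6 with slide as a block, 45 with the trended variance, 18 with array weights, 2 with the replicate block, and 4 to 21 leaving out single arrays. Among all genes, 0 to 9 passed. Enzymes at unadjusted p under 0.05 numbered 3 with slide as a block (10.3% of all genes), 2 with the replicate block (10.1%) and 1 to 3 leaving out arrays (8% to 12%). Enzymes with separate groups numbered 1 after quantile normalisation (19.3% of all genes) and 2 to 4 leaving out arrays (27.5% to 34.6%). Deviations of same-numbered rats correlated at r = 0.088, -0.108 and -0.054 across genes, and those of differently numbered rats at -0.132 to 0.172. With 3 rats per group these values cannot settle whether the numbers pair rats, and the labels do not say that they do. With the replicate block the Akr1d1 to Akr1c14 ratio stayed at 0.61 with an exact p of 0.25, the smallest that 3 pairs allow, and an adjusted p of 0.333.

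Signs turned for 5 enzymes. Cyp8b1 was at 0.0222 with normexp and 0.0130 with array weights, and -0.0911 to 0.0606 leaving out arrays. Baat was at 0.00533 with median scaling and -0.0557 to 0.0420 leaving out arrays. Hsd3b7 was at -0.0503 with slide as a block, -0.0463 with array weights and -0.259 to 0.295 leaving out arrays. Amacr was at 0.38, and its probes A_64_P378885 and A_44_P409654 at 0.34 and 0.28, with slide as a block. Leaving out arrays gave -0.38 to 0.38, -0.35 to 0.34 and -0.35 to 0.28 for these. Cyp7b1 ranged from -0.17 to 0.56. Naming probes by a gene name column was not run, since the files have none.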
